A study of Mus musculus with 10 samples.

Results

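Ghrh and the metallothionein genes Mt1, Mt2 and Mt3 were followed through all 10 pituitary single-cell libraries. These 4 genes, of 44288 gene symbols counted in the series, were chosen by name because the transgene carried by 1 of the libraries joins a human GHRH sequence to a metallothionein promoter. Each level below is a number of UMIs (counted mRNA molecules) of a gene per 10000 UMIs of the same cells, and each share is the percentage of cells with at least 1 UMI. Intervals are 95% and exact (Poisson for levels, binomial for shares), and they cover counting error only, not the spread between animals. Where cells were thinned to fewer UMIs, the binomial form was applied to expected numbers of cells, and those intervals are approximate.

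All mice were of the CD1 strain. On the 10X Genomics platform, 1 library came from WT females and 1 from WT males of 8 weeks. By Drop-seq, a method that pairs single cells with barcoded beads in droplets, there were 2 libraries of WT females and 2 of WT males of 8 weeks, 1 of mt/hGRF females of 8 weeks, 1 of WT virgin females of 13 weeks and 2 of WT lactating females of 13 weeks. Several libraries pooled mice, among them the mt/hGRF library and lactating library 2, and the mice of a pool cannot be told apart. The mt/hGRF genotype is 1 library, so animals, day and genotype cannot be told apart in it. Cells were obtained without enzymes, and no metal treatment is given in the labels.

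Growth hormone-releasing hormone (GHRH) is a peptide of arcuate nucleus neurons, and its G protein-coupled receptor raises cyclic AMP in the pituitary cells that make growth hormone. Metallothioneins are small cysteine-rich proteins that bind zinc and copper. Mt1 and Mt2 are made in most tissues and are switched on by metals, glucocorticoids and oxidative stress, whereas Mt3 is best known from brain. The metal response runs through the factor MTF1, which binds metal response elements in the Mt1 and Mt2 promoters. In mt/hGRF mice the promoter of mouse Mt1 drives human GHRH outside its normal hypothalamic site. The reads were aligned to the mouse genome alone and counted on the mouse gene, so the counts do not tell whether a Ghrh UMI came from the human or the mouse sequence.

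The promoters are shown because the question asked of the mt/hGRF library was whether Ghrh followed the metallothionein genes. On GRCm38, Ghrh lies on the minus strand at chr2:157329497-157347506. The metallothionein genes lie on the plus strand in the order Mt3 (chr8:94152607-94154146), Mt2 (chr8:94172664-94173568) and Mt1 (chr8:94179082-94180327), with 18517 bases between Mt3 and Mt2 and 5513 bases between Mt2 and Mt1. Sequences of 300 bases, 250 before and 50 after a RefSeq start (GRCm38.p6), are printed 5′ to 3′ on the strand of the gene. Capitals mark the metal response element core, searched as TGCACNC and as TGCGCNC on both strands.

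Mt1 (chr8:94178839-94179138): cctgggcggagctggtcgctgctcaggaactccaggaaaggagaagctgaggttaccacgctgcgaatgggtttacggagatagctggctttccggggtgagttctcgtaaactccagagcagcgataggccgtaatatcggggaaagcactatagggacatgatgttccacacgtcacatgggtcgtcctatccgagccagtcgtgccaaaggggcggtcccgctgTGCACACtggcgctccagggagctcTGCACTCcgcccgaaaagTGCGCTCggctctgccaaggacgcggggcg
Mt2 (chr8:94172368-94172667): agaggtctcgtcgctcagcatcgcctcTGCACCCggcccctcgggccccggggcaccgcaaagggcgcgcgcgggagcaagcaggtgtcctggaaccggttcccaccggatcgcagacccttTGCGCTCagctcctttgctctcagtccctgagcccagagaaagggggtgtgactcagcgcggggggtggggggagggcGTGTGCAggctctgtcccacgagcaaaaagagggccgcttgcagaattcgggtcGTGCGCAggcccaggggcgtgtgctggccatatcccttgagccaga
Mt3 (chr8:94152357-94152656): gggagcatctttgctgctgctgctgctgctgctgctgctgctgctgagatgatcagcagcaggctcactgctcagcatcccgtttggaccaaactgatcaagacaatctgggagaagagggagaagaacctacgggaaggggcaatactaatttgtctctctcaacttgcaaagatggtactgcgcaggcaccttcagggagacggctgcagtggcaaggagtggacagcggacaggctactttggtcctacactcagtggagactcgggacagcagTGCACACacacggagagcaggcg
Ghrh (chr2:157337377-157337676): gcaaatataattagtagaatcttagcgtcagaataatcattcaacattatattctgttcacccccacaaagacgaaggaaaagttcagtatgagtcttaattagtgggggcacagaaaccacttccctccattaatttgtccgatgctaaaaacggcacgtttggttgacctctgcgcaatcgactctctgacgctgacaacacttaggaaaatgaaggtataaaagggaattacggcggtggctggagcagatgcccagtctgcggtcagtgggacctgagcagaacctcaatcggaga

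The Mt1 window held 3 of these cores and the Mt2 window 4. Those of Mt1 lay at -23 to -17, 2 to 8 and 20 to 26 bases from the start used. Of 32851 promoter windows of the same length, 1.97% held at least 3 and 0.517% at least 4. The Mt3 window held 1 core, where 25.7% of all windows held 1 or more, and neither RefSeq window of mouse Ghrh held any (1 of the 2 is printed). A match is a string of letters and was not tested for binding. These windows describe the endogenous genes at the starts used. Other starts of Mt1, Mt2 and Mt3 were not searched, and the sequence of the transgene itself was not analysed here.

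Ghrh was counted almost exclusively in the mt/hGRF library. It had 227 UMIs in 142 of 2797 kept cells there, a share of 5.08% and a level of 0.953 (0.833 to 1.09). The other 9 libraries together held 2 Ghrh UMIs among 25056838, 1 in WT male library 1 and 1 in the 13-week virgin library. Both 8-week WT female Drop-seq libraries were at 0. Set against 3 counts over that group, the limit that a count of 0 allows, Ghrh was at least 85.3-fold higher in the mt/hGRF library. Hypothalamic Ghrh neurons are not part of the pituitary, and the WT libraries give the background of the measurement.

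**Figure D1:**
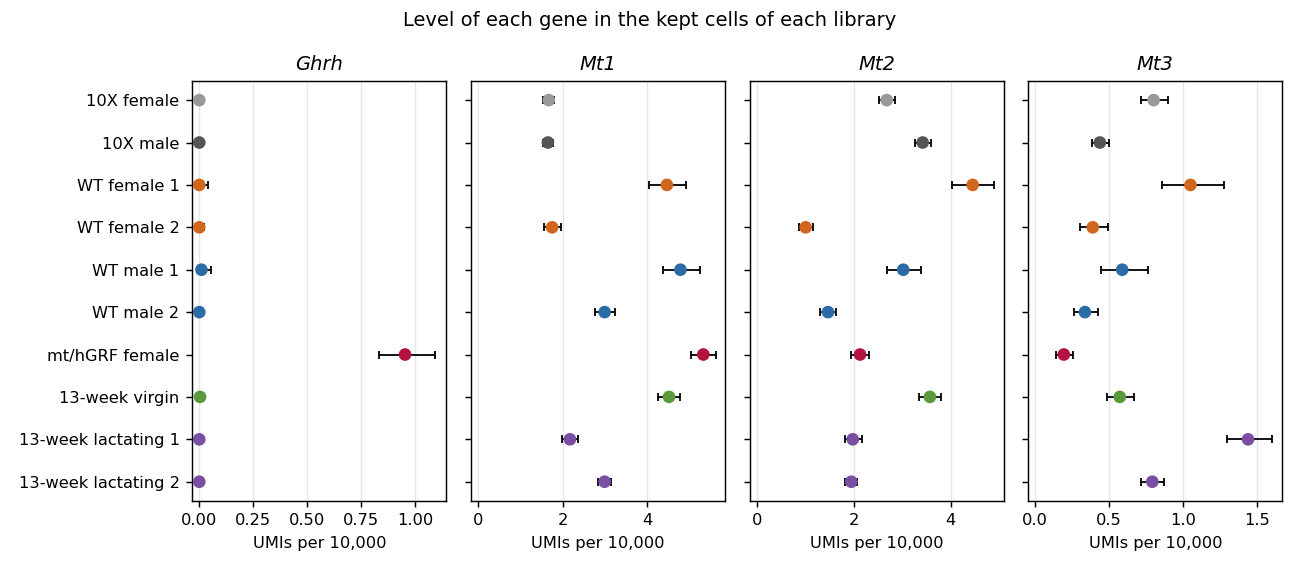
UMIs per 10000 of Ghrh, Mt1, Mt2 and Mt3 in the kept cells of each of the 10 libraries (points) with exact 95% Poisson intervals (bars), coloured by group. Ghrh stands at 0.953 in the mt/hGRF library and at 0.0101 or below elsewhere, Mt1 ranges from 1.65 to 5.32, and Mt3 is lowest in the mt/hGRF library at 0.193.

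Mt1, the gene whose promoter the transgene borrows, was at 1.67 and 1.65 in the 10X female and male libraries. Among Drop-seq libraries it was at 4.46 and 1.75 in WT females, 4.78 and 2.99 in WT males, 5.32 in the mt/hGRF females, 4.51 in the 13-week virgin and 2.17 and 2.99 in the lactating females. The mt/hGRF library was the highest of the 10, but WT male library 1, the virgin library and WT female library 1 came close to it, and the WT female libraries lay far apart. Between 9.94% and 22.7% of kept cells held an Mt1 UMI.

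Mt2, its neighbour on chromosome 8, was at 2.68 and 3.42 in the 10X libraries. By Drop-seq it was at 4.45 and 1.01 in WT females, 3.02 and 1.47 in WT males, 2.13 in mt/hGRF females, 3.57 in the virgin and 1.98 and 1.95 in lactating females. The mt/hGRF library lay between its 2 WT female controls. The ratio of Mt1 to Mt2 UMIs followed the platform: it was 0.622 and 0.482 on the 10X Genomics platform and 1.00 to 2.03 in the 7 WT Drop-seq libraries. In the mt/hGRF library it was 2.5, above all of these.

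Mt3, the brain-type metallothionein, was the scarcest of the family in UMIs. Its level was 0.801 and 0.437 in the 10X libraries, 1.05 and 0.389 in WT females, 0.588 and 0.336 in WT males, 0.193 in mt/hGRF females, 0.572 in the virgin and 1.44 and 0.792 in lactating females. The mt/hGRF library had the lowest level of the 10 and lactating library 1 the highest. Within the WT females the 2 libraries differed by more than 2-fold for each metallothionein gene, WT female library 1 being the higher each time. Library 1 was also the higher of the WT males, whose run tags the WT females share, for all 3 genes.

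The quality of the libraries bears on these values. Kept cells numbered 978 to 5256 per library, with medians of 534 to 784.5 UMIs by Drop-seq and 1028 and 1246 UMIs on the 10X Genomics platform. The mt/hGRF library stood apart in that 38.7% of its sufficiently deep barcodes were over the mitochondrial limit, against 6.95% to 20.4% elsewhere. Libraries shared 6 kept barcodes on the 10X Genomics platform (1 pair) and 7 in total over 28 Drop-seq pairs. WT female library 1 was rich in hormone-rich barcodes (314 of 978 cells, against 72 of 1482 in WT female library 2). The part of these features in the metallothionein differences was not tested.

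Between groups, the library was the unit and edgeR's quasi-likelihood test was fitted over 18359 genes with Benjamini-Hochberg adjustment. Replicates here are separate libraries of a group, and the p-values measure only the spread between these libraries. In mt/hGRF females against WT females of 8 weeks no gene passed an adjusted p of 0.05 (0% called), the 4 members included. The unadjusted p was under 0.05 for 1933 genes, and DESeq2 called 181. Ghrh had an adjusted p of 0.176 (0.000307 by DESeq2, and 4.65e-17 to 0.184 over all alternatives). Since its counts lay in the mt/hGRF library alone, Ghrh entered the fit only through the library in which it was high, and the test adds no support to the counts. Its side of the threshold changed with the tool, with the low-count filter and with WT female library 1, without which the adjusted p was 0.000796 and 623 genes were called.

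For the metallothioneins this comparison gave log2 differences of 0.93 ± 0.64 (SE, adjusted p = 0.658) for Mt1, -0.22 ± 0.83 (adjusted p = 0.953) for Mt2 and -1.72 ± 0.75 (adjusted p = 0.469) for Mt3 by edgeR (1 library against 2). None passed the adjusted threshold. Mt3, at an unadjusted p of 0.0473 by edgeR, lay below both WT female libraries, while Mt2 lay between them and Mt1 above both. The value of Mt1 was 1.92 without WT female library 1 and 0.33 without WT female library 2, and that of Mt2 turned to 1.39 without WT female library 1. The value of Mt3 was -0.70 without the former and -2.36 without the latter, so its size, too, depended on which WT female library was kept.

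Sex and lactation did not give a call for any metallothionein gene either. In WT males against WT females of 8 weeks (2 libraries against 2), edgeR called 3 of 18359 genes (0.0163%), namely Cwc22, Ddx3y and Xist, which are named here after their values were seen. The log2 differences were 0.27 ± 0.54 for Mt1, -0.35 ± 0.68 for Mt2 and -0.70 ± 0.57 for Mt3 (SE, each adjusted p = 1.000). In lactating against virgin females of 13 weeks (2 libraries against 1), edgeR called no gene (0% called), with 307 genes at an unadjusted p under 0.05 and 5 called by DESeq2. There the log2 differences were -0.51 ± 0.65 for Mt1, -0.60 ± 0.80 for Mt2 and 1.19 ± 0.70 for Mt3 (SE, each adjusted p = 1.00 by edgeR). For Ghrh each of these contrasts rested on 1 UMI and did not pass (adjusted p = 1.000 and 1.00 by edgeR), and no size is drawn from them.

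The pathway genes around the members were read from lists of metal transport and storage, antioxidant (NRF2) genes, glucocorticoid-responsive genes, immediate early and heat shock genes, and GHRH signalling. None of their 18, 20, 12, 13 and 18 tested genes passed the adjusted threshold by edgeR in any of the 3 comparisons, where 0%, 0.0163% and 0% of all genes did. In the mt/hGRF comparison 1, 0, 1, 0 and 1 of them had an unadjusted p under 0.05, and the median log2 differences ran from -0.19 to 0.30 beside -0.08 over all genes. Gh, the hormone that GHRH drives, had a log2 difference of 0.48 ± 0.92 in this comparison (SE, adjusted p = 0.890 by edgeR, 1 library against 2).

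Cells were next sorted into classes by lists of marker genes that held none of the 4 members. A cell was hormone-rich when hormone mRNAs filled at least 30% of its UMIs with at least 2 hormones present, and otherwise took the class with most marker UMIs (at least 2). The gates were checked against hormones that the lists of these classes did not hold. The rest of the library here means its other kept cells without the hormone-rich ones. Against that rest Gh was higher in somatotrope-gated cells in 10 of 10 libraries (2.20 to 7.99 times). Prl was higher in lactotrope-gated cells in 10 of 10 (1.06 to 22.3 times) and Pomc in melanotrope-gated cells in 10 of 10 (5.79 to 21.0 times). The hormone-rich cells left out had Drop-seq medians of 2468 for Gh, 1387 for Prl and 659 for Pomc. Those of somatotropes (Gh), lactotropes (Prl) and melanotropes (Pomc) were 1690, 737 and 1324. A check with the hormone-rich cells included was not made. The class gated on collagen and other stromal genes went against that label, since its Gh was 0.772 to 1.45 times that of the rest and its Prl 0.451 to 16.5 times, higher in 7 of 10 libraries. In lactating library 1 its Prl level was 1351, against 833 in lactotropes. It is called collagen-gated below and was not taken as a cell type. Stem and supporting cells held 0.423 to 1.37 times the Gh of the rest, higher in 3 of 10 libraries, as in the collagen-gated class. Their name below rests on the markers of the gate alone. Macrophage-gated cells held 0.0838 to 0.428 times the Gh of the rest, hormone RNA that these cells are not known to make. Of the cells of a library 15.8% to 54.8% stayed ungated, most of all in the mt/hGRF library.

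The stem and supporting class was gated on Sox2, Sox9, S100b and 4 other markers of the progenitor and folliculostellate population of the gland. These cells held the most Mt1 and Mt2 RNA among the classes large enough to test. Their Mt1 level was 19.2 and 13.7 in WT females, 18.6 and 14.7 in WT males, 14.3 in mt/hGRF females, 15.5 in the virgin and 12 and 19.0 in lactating females. On the 10X Genomics platform it was 34.5 and 8.71. In every library this was above the level over all kept cells, while the groups overlapped.

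Against the other cells of the same libraries (7 Drop-seq libraries with at least 20 such cells), Mt1 was higher by 1.60 ± 0.19 on the log2 scale (SE, adjusted p = 7.51e-15), Mt2 by 1.92 ± 0.20 (adjusted p = 4.19e-20) and Mt3 by 1.93 ± 0.24 (adjusted p = 8.19e-14), each in 7 of 7 libraries by edgeR. Of 12363 genes tested, 10.6% were called higher in this class. Its Mt2 level ran from 9.55 in mt/hGRF females to 17.9 in WT female library 2. Mt3 varied far more, from 0 of 19022 UMIs in WT female library 2, where 3 UMIs would give 1.58, and 0.227 in mt/hGRF females to 12.5 in lactating library 1. Small cell numbers (16 to 91 per Drop-seq library) lie behind these values.

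Of the other stress-related lists only the antioxidant one had more genes higher than lower in these cells, where 10.6% of all genes were called higher and 21.8% lower. Of 18 antioxidant (NRF2) genes tested, 9 were higher and 2 lower, with a median log2 difference of 0.54 beside -0.32 over all genes. The metal transport list gave 1 higher and 1 lower of 16, and the glucocorticoid-responsive list 3 higher and 5 lower of 12. Of 12 immediate early and heat shock genes 2 were higher and 6 lower, with a median of -0.72.

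**Figure D2:**
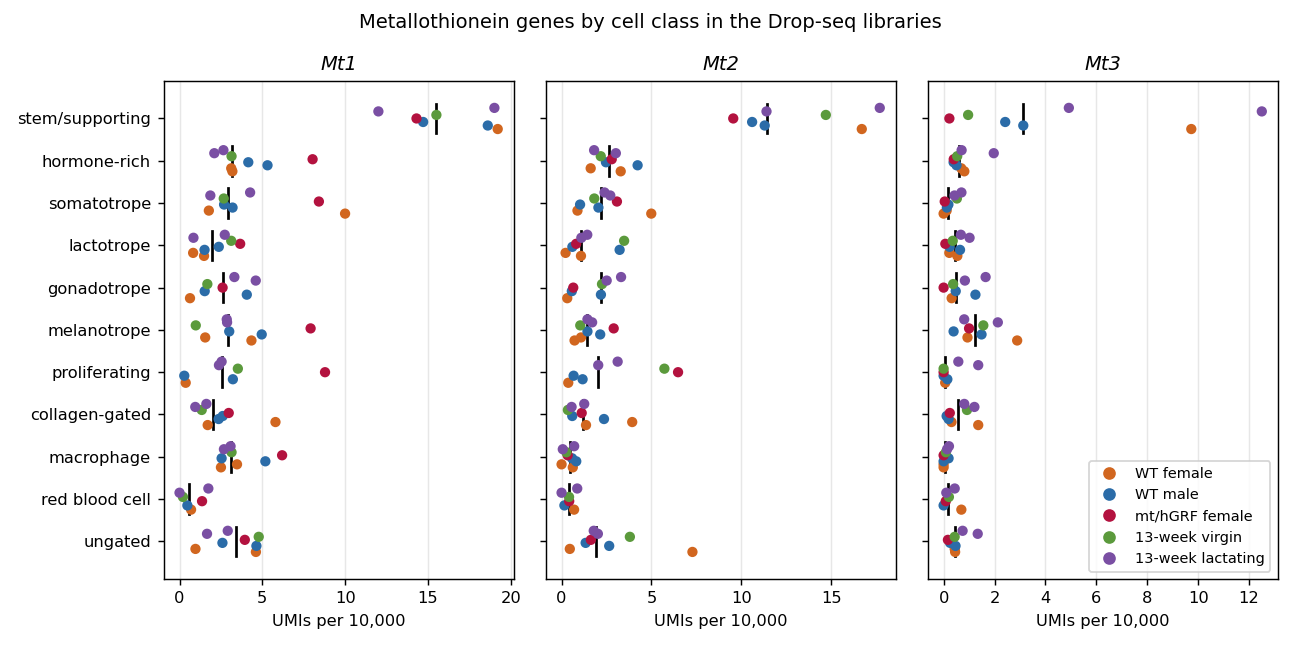
UMIs per 10000 of Mt1, Mt2 and Mt3 in each cell class of the Drop-seq libraries with at least 20 cells of that class (points, coloured by group), with the median over libraries as a black line. Stem and supporting cells lie far to the right of all other classes for Mt1 (12 to 19.2) and Mt2, while melanotropes are raised for Mt3 and macrophages hold Mt1 but little Mt2 or Mt3.

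The 3 metallothionein genes did not follow one pattern across the remaining classes. Macrophages, the phagocytes of the gland, held Mt1 at 2.5 to 6.19 by Drop-seq (median 3.11), which did not pass the test against the other cells (log2 difference -0.20 ± 0.17, SE, adjusted p = 0.310 by edgeR, 0.00864 to 0.702 over the alternatives, higher in 5 of 8 libraries). With a gate of 3 marker UMIs it passed as lower (-0.50), and in the 10X Genomics libraries the value was 0.61. Mt2 was nearly absent from them at 0 to 0.817 (log2 difference -2.93 ± 0.26, adjusted p = 9.53e-18), and so was Mt3 at 0 to 0.210 (-3.27 ± 0.42, adjusted p = 1.25e-10), both lower in 8 of 8 libraries. On the 10X Genomics platform the same class held Mt1 at 3.70 and 2.76, Mt2 at 0.317 and 0.424, and no Mt3 UMI. Of 12053 genes tested 36.9% were called lower in macrophages.

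Melanotropes, the Pomc-producing cells of the intermediate lobe, were raised for Mt3 alone. Mt3 stood at 2.89 and 0.938 in WT females, 1.49 and 0.392 in WT males, 1.00 in mt/hGRF females, 1.56 in the virgin and 2.13 and 0.809 in lactating females. It was higher than in the other cells in 8 of 8 Drop-seq libraries (log2 difference 1.03 ± 0.20, SE, adjusted p = 2.51e-05 by edgeR, with 8.25% of 12518 genes called higher). Mt1 did not pass the test (-0.18 ± 0.17, adjusted p = 0.464), and Mt2 was lower (-0.58 ± 0.19, adjusted p = 0.0147), with 23.0% of genes called lower, a call lost without the virgin library (-0.38), WT female library 1 (-0.37) or WT male library 1 (-0.50), and with the hormone-rich gate applied last (-0.32). None of the antioxidant list was higher in this class and 10 of 18 were lower.

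Somatotropes, the growth hormone cells that GHRH acts on, were low in Mt3, at 0 to 0.700 (log2 difference -1.40 ± 0.28, SE, adjusted p = 7.84e-05 by edgeR, lower in 8 of 8 libraries, with 12.1% of 11785 genes called lower). Their Mt1 ranged from 1.77 to 9.99 with WT female library 1 and the mt/hGRF library (8.41) far above the others, and neither Mt1 nor Mt2 passed the test against the other cells (adjusted p = 0.840 and 0.273).

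Lactotropes, the prolactin cells, were lower in all 3 genes (Mt1 -0.99 ± 0.16, Mt2 -1.09 ± 0.18 and Mt3 -0.74 ± 0.19 on the log2 scale, SE, adjusted p = 5.52e-06, 6.14e-06 and 0.00371 by edgeR, with 15.8% of 12139 genes called lower). The Mt1 level there was below that of the other cells in 8 of 8 libraries and the other 2 genes in 7 of 8. With a gate of 3 marker UMIs the call of Mt3 was lost (-0.66, adjusted p = 0.0540 by edgeR).

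Gonadotropes were lower for Mt1 and Mt2, each in 5 of 7 libraries (-1.36 ± 0.28 and -1.31 ± 0.31, SE, adjusted p = 5.45e-05 and 0.000546 by edgeR), where the median over all genes was itself -0.51 and 17.6% of genes were called lower. The collagen-gated class was lower for the same pair (-0.97 ± 0.18 and -1.15 ± 0.19, adjusted p = 1.63e-06 and 1.30e-07 by edgeR, with 5.79% of genes called lower), the call of Mt1 being lost with a gate of 3 marker UMIs (-0.56, adjusted p = 0.0764). Proliferating cells were lower for Mt1 in 5 of 7 libraries, the mt/hGRF library and lactating library 1 being higher, and for Mt3 in 7 of 7 (-1.0 ± 0.40 and -1.84 ± 0.55, SE, adjusted p = 0.0424 and 0.00488 by edgeR, with 11.0% called lower), the call of Mt1 being lost without the virgin library (-0.94) or WT female library 2 (-0.83). In red blood cells no metallothionein was called (adjusted p = 0.0841 to 0.600 by edgeR, with 6.67% of genes called in either direction), though all 3 were below the other cells in 6 of 6 libraries, and Mt1 and Mt2 passed without lactating library 2 (-1.71 and -1.85). The median over all genes was itself -1.23 there, beside -1.42 for Mt1, -1.57 for Mt2 and -0.46 for Mt3.

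Hormone-rich barcodes were called higher for each gene (log2 differences 0.53 to 0.64, with 14.8% of genes called higher by edgeR), but their UMIs per 10000 were above those of the other cells in 4, 5 and 4 of 8 libraries, and no direction is drawn from them.

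A few classes were too small to test and are given as values, of which the corticotrope-gated one had higher Mt1 and Mt2 medians by Drop-seq than stem and supporting cells (15.1 and 13.1). Corticotrope-gated cells numbered 59 over the 8 Drop-seq libraries (1 to 14 each). Their Mt1 level had a median of 27.6 (4.28 to 46.1) and Mt2 of 28.1 (2.92 to 51.4), with Pomc at 378 to 1909. On the 10X Genomics platform the order was the other way for both genes: the 13 cells of this gate had Mt1 at 3.41 and 3.97, Mt2 at 10.7 and 7.88 and Pomc at 40.8 to 54.6 only. T and NK cells, 69 over the Drop-seq libraries, lay at the other end with Mt1 at a median of 0 (highest 0.835) and no Mt2 or Mt3 UMI. The 6 such cells of the 10X Genomics platform held no UMI of Mt1, Mt2 or Mt3.

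Within classes the groups were compared again, for the 6 classes with at least 20 cells in each Drop-seq library (somatotropes, lactotropes, melanotropes, macrophages, hormone-rich and collagen-gated cells). No metallothionein gene passed in any class or comparison. Ghrh entered 2 of these fits, through the counts of the mt/hGRF library alone, so that its passing there was fixed by the library in which it was high and adds no support. In somatotropes all 56 Ghrh UMIs of the comparison lay in the mt/hGRF library (adjusted p = 0.00102 by edgeR, with 0.150% of 5346 genes called higher). In hormone-rich cells all 37 did so (adjusted p = 0.0217 by edgeR, with 0.0562% of 5337 genes called higher).

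Mt1 had a positive log2 difference between mt/hGRF and WT females in 5 of the 6 classes, from -0.34 in collagen-gated cells to 2.04 ± 0.53 in lactotropes (SE, lowest adjusted p = 0.112 by edgeR), where 0.0613% of genes were called in either direction. That share was 0.168%, 0.0749%, 0.0203%, 0% and 0% in somatotropes, hormone-rich cells, melanotropes, macrophages and collagen-gated cells. Mt3 was negative in 5 of 5 classes (-1.86 to -0.55, lowest adjusted p = 0.794). Both controls are shared by all classes, so these signs are not independent of each other. With a stricter gate of at least 3 marker UMIs, Mt1 passed in somatotropes (2.65, adjusted p = 0.00628 by edgeR).

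Lactation gave a positive value for Mt3 in 5 of 5 classes (0.08 to 1.44, lowest adjusted p = 0.963 by edgeR), with 1 virgin library as the control of each. Mt1 was positive there in 3 of 6 classes, the largest being 1.75 ± 0.59 in melanotropes (SE, adjusted p = 1.00 by edgeR). Between the sexes Mt1 was positive in 4 of 6 classes (-0.86 to 0.96, lowest adjusted p = 0.921 by edgeR). The share of all genes called in lactation was 0.0858% in lactotropes, 0.0375% in hormone-rich cells, 0.0269% in macrophages, 0.0216% in collagen-gated cells, 0.0203% in melanotropes and 0.0187% in somatotropes. Between the sexes it was 0.233%, 0.150%, 0.0269%, 0.0216%, 0.102% and 0.187% in the same order.

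**Figure D3:**
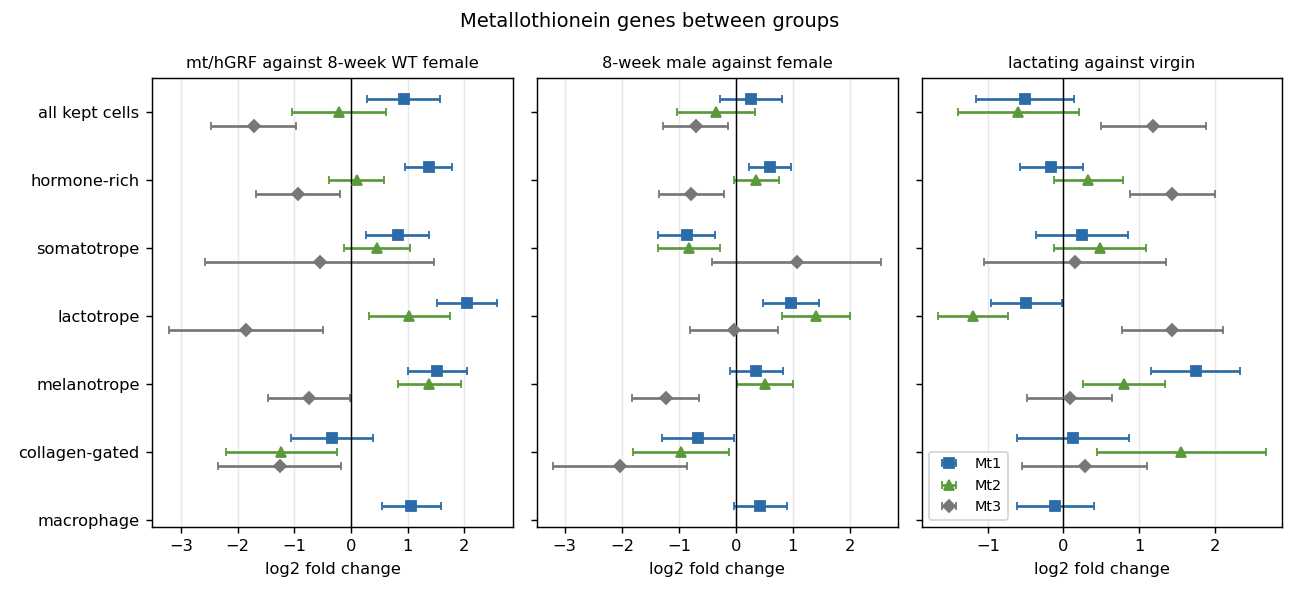
Log2 differences of Mt1, Mt2 and Mt3 (points) with their SE (bars) from edgeR in all kept cells and in each of 6 classes, for mt/hGRF against WT females, WT males against WT females of 8 weeks, and lactating against virgin females. No point passed an adjusted p of 0.05, and macrophages held too few Mt2 and Mt3 UMIs to be tested.

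The classes in which Ghrh lay in the mt/hGRF library were read next, as a description of 1 library. Among classes with at least 20 cells, the level was highest in thyrotrope-gated cells (4.32, 2.23 to 7.54), though 10 of their 12 UMIs came from 1 of 23 cells. Gh filled 38.0% of the UMIs of that cell, and the gate of this class was not among those checked against hormones. Somatotropes stood at 2.46 (1.86 to 3.20), hormone-rich cells at 2.11 (1.48 to 2.90), and stem and supporting cells at 1.59 (0.870 to 2.67). Their intervals overlap, so the order among these 4 classes is not settled by the counts. In somatotropes 5 of 156 cells held 40 of the 56 UMIs. Without cells of 4 or more Ghrh UMIs, an alternative chosen after the data were seen, the levels were 0.902 (0.516 to 1.47) in somatotropes, 1.07 (0.129 to 3.85) in thyrotrope-gated cells and 1.92 (1.31 to 2.70) in hormone-rich cells, while stem and supporting cells, melanotropes and macrophages held no such cell.

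Below them came lactotropes at 0.881 (0.469 to 1.51), gonadotropes at 0.651 (1 UMI), ungated cells at 0.591, proliferating cells at 0.549, collagen-gated cells at 0.486, macrophages at 0.476 (0.192 to 0.982), red blood cells at 0.255 (0.0525 to 0.744) and melanotropes at 0.223 (0.0270 to 0.805). T and NK cells had 0 Ghrh UMIs in 28 cells (interval 0 to 1.09). The corticotrope-gated class, with 5 cells too small to rank, held 6 Ghrh UMIs in 2 of them (8.55), and 5 of the 6 came from 1 cell. Somatotropes held 24.7% of the Ghrh UMIs with 9.54% of all UMIs, and hormone-rich cells 16.3% with 7.38%. The upper limit of melanotropes and that of red blood cells lay below the lower limits of thyrotrope-gated cells, somatotropes, hormone-rich cells and stem and supporting cells. Without the cells of 4 or more Ghrh UMIs this separation held for the latter 2 classes and not for thyrotrope-gated cells and somatotropes. At a minimum of 500 UMIs it was lost for stem and supporting cells (1.42, 0.734 to 2.48), beside upper limits of 0.875 in melanotropes and 0.769 in red blood cells. With a gate of 3 marker UMIs their lower limit of 0.902 lay below the melanotropes' upper limit of 0.936.

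As shares, 19.3% of stem and supporting cells (median 1091 UMIs), 19.3% of hormone-rich cells (785), 10.3% of somatotropes (844.5), 4.61% of macrophages (772), 3.49% of red blood cells (1318.5) and 2.20% of melanotropes (789) held a Ghrh UMI. Red blood cells are known to be nearly devoid of transcription, so their share was set beside the others as a background. Their Ghrh lay in 3 of 10 barcodes with Mt1 or Mt2 (30%, 6.67 to 65.2) and in 0 of 76 without (interval 0 to 4.74), and whether these barcodes also held another cell was not tested. The shares of melanotropes, macrophages, lactotropes and collagen-gated cells (3.10%) lay within the interval of this share (0.725% to 9.86%), and that of somatotropes (5.98 to 16.1) overlapped it.

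Set against the metallothionein genes of the same library, the classes did not line up throughout. Stem and supporting cells ranked the first for Mt1 (14.3) and the fourth for Ghrh among 13 classes. Somatotropes ranked the third for Mt1 (8.41) and the second for Ghrh. Melanotropes had nearly the same Mt1 level as somatotropes (7.91) and more Mt3, yet ranked the 12th for Ghrh, with an upper limit of 0.805 below the somatotropes' lower limit of 1.86. That gap rested on few deep cells: without those of 4 or more Ghrh UMIs somatotropes were at 0.902 (0.516 to 1.47), and among cells under 1000 UMIs the levels were 0.322 (0.0389 to 1.16) in somatotropes and 0.278 (0.00704 to 1.55) in melanotropes.

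Proliferating cells had Mt1 at 8.78 and Ghrh at 0.549 (0.178 to 1.28), and macrophages had Mt1 at 6.19 and Ghrh at 0.476 (0.192 to 0.982). Both Ghrh intervals overlapped that of stem and supporting cells (0.870 to 2.67). Both lay below those of somatotropes (1.86 to 3.20) and of hormone-rich cells (1.48 to 2.90), the latter with Mt1 at 8.03. Without the cells of 4 or more Ghrh UMIs, picked by their Ghrh, both overlapped that of somatotropes (0.516 to 1.47). They stayed below that of hormone-rich cells (1.31 to 2.70). As a share, 5.75% of proliferating cells held Ghrh, beside 5.08% of all kept cells. Over the 13 classes the Pearson correlation of Ghrh with Mt1 was 0.646 and Spearman's rho 0.522. With Mt2 the pair was 0.367 and 0.418, and with Mt3 0.397 and 0.309. These points share 1 library and its free RNA, and they rest on 0 to 59 Ghrh UMIs each.

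**Figure D4:**
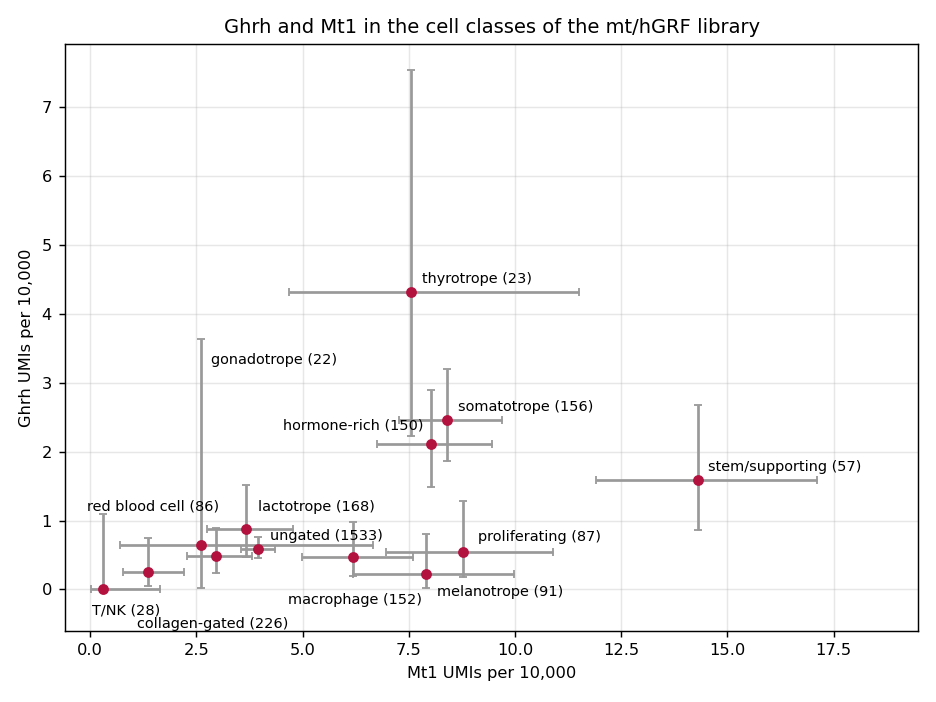
Ghrh against Mt1, both in UMIs per 10000, in the 13 classes of the mt/hGRF library with at least 20 cells (points, cell numbers in brackets), with exact 95% Poisson intervals (bars). Somatotropes and melanotropes have like Mt1 levels of 8.41 and 7.91 and Ghrh levels of 2.46 and 0.223, the former being 0.902 without 5 cells of 4 or more Ghrh UMIs.

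Single cells were then compared within the mt/hGRF library. Ghrh was found in 86 of 685 cells with an Mt1 or Mt2 UMI (12.6%, 10.2 to 15.3) and in 56 of 2112 cells without one (2.65%, 2.01 to 3.43). The former were deeper (medians of 848 and 568 UMIs). With each cell thinned to 300 UMIs, of which no cell fell short, the expected shares were 3.84% (2.10 to 6.39) and 1.39% (0.963 to 1.94). Thinned to 500 UMIs, which left out 950 cells, they were 5.76% (3.61 to 8.65) and 2.57% (1.83 to 3.51). Thinning thus brought the ratio of the shares down, and the intervals lay narrowly apart at 300 and at 500 UMIs. At 300 UMIs they overlapped at their ends (1.88 to 6.05 and 0.926 to 1.89) once the 10 cells with most Ghrh were left out. Those 10 were picked by their Ghrh and all held Mt1, so leaving them out lowered the share with metallothionein by design.

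Cells of like depth gave the same order, with intervals apart in 2 of 4 steps. Of cells with 300 to under 500 UMIs, 5.38% (2.19 to 10.8) held Ghrh with metallothionein and 0.976% (0.422 to 1.91) without it. From 500 to under 1000 UMIs the shares were 7.17% (4.43 to 10.9) and 3.45% (2.39 to 4.81), which overlap. From 1000 to under 3000 UMIs they were 13.2% (9.01 to 18.4) and 4.26% (2.35 to 7.04). In the deepest cells, of 3000 UMIs or more, they were 53.6% (39.7 to 67.0) and 14.3% (0.361 to 57.9), which overlap and rest on 7 cells without metallothionein. By the number of Mt1 and Mt2 UMIs in the cell, the Ghrh level was 0.378 (0.285 to 0.490) with none, 0.742 (0.485 to 1.09) with 1, 1.87 (1.23 to 2.72) with 2, 1.17 (0.653 to 1.92) with 3 to 4 and 3.75 (3.06 to 4.54) with 5 or more. It was lowest in the first and highest in the last of these, without rising at each step, and median depth went from 568 to 2602 UMIs. Most of the 10 cells with 4 or more Ghrh UMIs, which together held 68, were among the 82 cells of the last step. That step held 103 Ghrh UMIs, and its interval takes them as independent. Its level without those cells was not worked out.

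The shares were also read class by class. In somatotropes Ghrh was in 15 of 47 cells with Mt1 or Mt2 (31.9%, 19.1 to 47.1) and 1 of 109 without (0.917%, 0.0232 to 5.01), but thinned to 300 UMIs the shares were 4.64% and 1.46% with overlapping intervals. In stem and supporting cells it was in 10 of 39 (25.6%) and 1 of 18 (5.56%), and in hormone-rich cells in 20 of 66 (30.3%) and 9 of 84 (10.7%). Thinned to 300 UMIs these became 7.56% and 3.86% in stem and supporting cells, and 8.55% and 4.61% in hormone-rich cells, with overlapping intervals. At 500 UMIs they were 7.52% and 6.85%, and 11.6% and 8.66%, which also overlap. In macrophages it was in 0 of 47 cells with (interval 0 to 7.55%) and 7 of 105 without (6.67%), and in melanotropes in 0 of 28 with (interval 0 to 12.3%) and 2 of 63 without (3.17%), with overlapping intervals in both. Thinned to 300 UMIs these 2 classes stood at 0% (0 to 15.5) and 2.34% (0.491 to 6.63), and at 0% (0 to 21.3) and 0.540% (0.000117 to 5.80). Proliferating cells went the other way, with Ghrh in 5 of 43 cells with metallothionein (11.6%, 3.89 to 25.1) and 0 of 44 without (0 to 8.04%). These intervals overlap, and thinned to 300 UMIs the shares were 1.85% and 0.985%. No test was made of these differences between classes, since cells of 1 library are not replicates.

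Ghrh was concentrated in the deepest cells. The level was 0.421, 0.676 and 0.567 in cells of 300, 500 and 1000 UMIs upwards to the next step, and 3.22 (2.64 to 3.89) in the 63 cells of 3000 or more, which held 107 of the 227 UMIs. All 10 cells with 4 or more Ghrh UMIs were among these 63 and held 68 of the 107. Mt1 rose over the same steps from 3.29 to 11.8 and Mt2 from 1.29 to 4.94. In somatotropes Ghrh was at 0.322 (0.0389 to 1.16) in cells under 1000 UMIs and 3.27 (2.46 to 4.27) above. Melanotropes held 0.278 (0.00704 to 1.55) below that depth and 0.186 (0.00470 to 1.04) above it, on 1 UMI each. Macrophages held 0.880 (0.323 to 1.91) below and 0.127 (0.00322 to 0.708) above, and lactotropes 0.969 (0.390 to 2.0) and 0.796 (0.292 to 1.73). Hormone-rich cells held 2.22 (1.15 to 3.88) and 2.05 (1.33 to 3.03), and stem and supporting cells 1.92 (0.396 to 5.61) and 1.52 (0.759 to 2.72). Under 1000 UMIs the somatotrope level was below those of macrophages, lactotropes, hormone-rich cells and stem and supporting cells, with overlapping intervals. The part of depth in these levels was not tested.

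A small number of cells held much of the signal. Of the 142 positive cells 112 had 1 Ghrh UMI, whereas 10 cells with 4 or more held 68 UMIs (30% of the total). Those 10 were 5 somatotropes, 1 thyrotrope-gated, 1 corticotrope-gated, 1 hormone-rich and 2 ungated cells. The cell with most had 16 Ghrh UMIs among 13436, with 40 of Mt1, 5 of Mt2 and Gh filling 32.7% of its UMIs, and all 10 held Mt1. Without them the shares at 300 UMIs were 3.55% (1.88 to 6.05) with metallothionein and 1.34% (0.926 to 1.89) without, beside 3.84% and 1.39% with them. The intervals then overlapped at their ends only. Since the 10 cells were picked by Ghrh itself, no conclusion is drawn from this overlap.

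**Figure D5:**
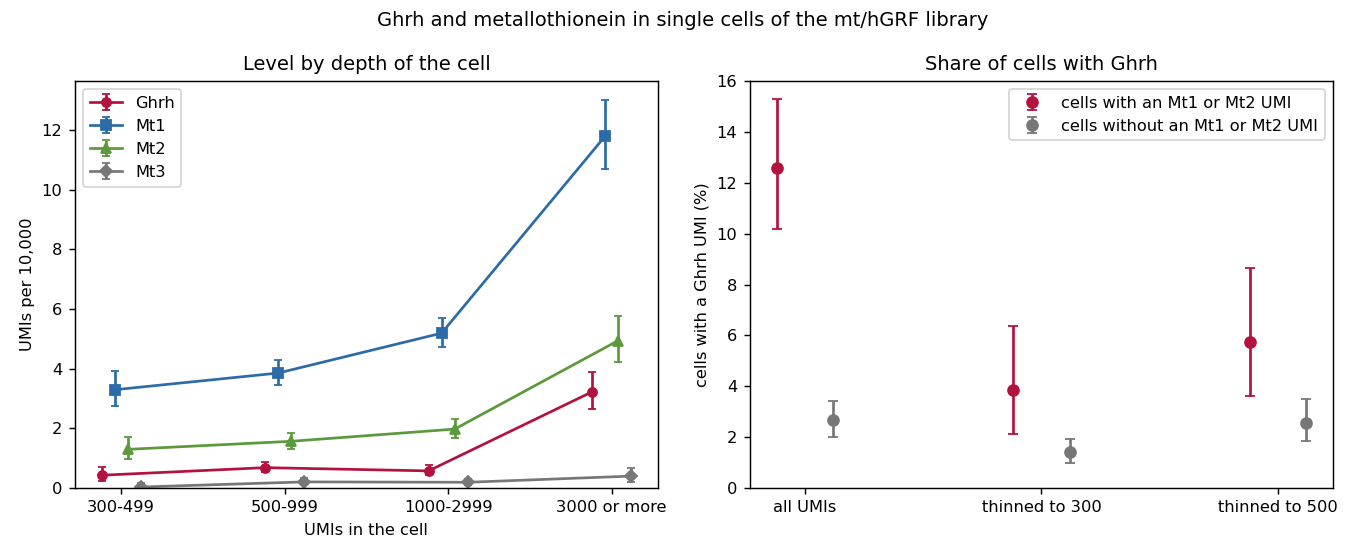
Left, UMIs per 10000 of the 4 genes in cells of the mt/hGRF library grouped by their number of UMIs (points) with exact 95% Poisson intervals (bars). Right, percentage of cells with a Ghrh UMI among cells with and without an Mt1 or Mt2 UMI, before and after thinning (points). Bars are 95% binomial intervals, exact before thinning and approximate after it. Ghrh reaches 3.22 in the 63 deepest cells, where 10 cells hold 68 of 107 Ghrh UMIs, and the thinned shares are 3.84% and 1.39% at 300 UMIs.

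The genes whose pattern was most like each member were named by the highest Pearson correlation of log2(UMIs per 10000 + 0.5). Over 86 library-by-class sums of the Drop-seq libraries and 9843 genes, those for Mt1 were Mt2 (0.76), Crip2 (0.70), Slc25a4 (0.69), Cyb5r3 (0.67) and Dbi (0.67). For Mt2 they were Atp1b1 (0.80), Mt1 (0.76), Crip2 (0.74), Epcam (0.72) and Kazald1 (0.72). For Mt3 they were Ndrg2 (0.71), Clu (0.66), Cyp2f2 (0.65), Six3 (0.61) and Dkk3 (0.61), of which Cyp2f2 was a marker of the stem and supporting gate.

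Among the metallothionein genes Mt1 and Mt2 were the most alike, while Mt3 correlated at 0.53 with Mt2 and 0.37 with Mt1. For Ghrh, over the 13 classes of its 1 library and 1728 genes, the most alike were Resp18 (0.88), Dad1 (0.83), Scg5 (0.81), Gm1673 (0.81) and Snhg18 (0.80). Resp18 and Scg5 belong to the secretory granules of endocrine cells. Mt1 ranked the 51st (0.65) and Mt2 the 381st (0.37).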

How the data were processed

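Single-cell UMI tables of 10 mouse pituitary libraries were used (8 Drop-seq, 2 10X Genomics). The deposited values are raw counts of UMIs per gene and barcode. Per the authors, Drop-seq reads were mapped to mm10 with Gencode vM13, and unique exonic reads on the annotated strand were counted, with UMIs of edit distance 1 merged. The submitters' processing notes name STAR 2.5.2a and Cell Ranger, the latter with its version not given. The mitochondrial limit and the limits on depth followed the authors: a Drop-seq barcode was kept from 300 UMIs on if it had between 100 and 4000 genes, a barcode of the other platform if it had between 200 and 3000, and both only if mitochondrial UMIs were under 10%. Kept libraries held 960289 to 5080590 UMIs. No doublet caller was run.

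The members and lists were chosen with earlier results of these data known. Cells were assigned by marker gates: red blood cell (5% or more of UMIs), hormone-rich (30%, at least 2 hormones at 2% or more), then the list with most UMIs (at least 2). UMIs were summed over each library, or over each class of a library (20 cells or more). These sums entered the two-sided quasi-likelihood test of edgeR 4.0.16 in R 4.3.3, with TMM scaling, its default low-count filter and Benjamini-Hochberg adjustment. The 8 Drop-seq libraries in 5 groups shared 1 estimate of spread, so that a lone library was assumed to vary like the others. A class was tested against the other cells with library as a term. Errors are log2 difference divided by the root of F. DESeq2 1.42.0 was an alternative, with other filters, gates and left-out libraries. Thinned shares are expectations from the hypergeometric distribution, and their intervals treat expected numbers of cells as counts. The code was tested on simulated data with known changes. Promoters came from RefSeq tables. The named genes were the 4 members, pathway genes past the threshold between groups (none), Gh, Prl and Pomc, and the 5 genes most like each member.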

Additional observations from a re-analysis of the deposited data

Results flagged for a closer look

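Ghrh was also counted in barcodes of the mt/hGRF library that the filters left out, where the same kinds of barcodes in the 9 other libraries held 1 Ghrh UMI in all. Barcodes over the mitochondrial limit held 95 Ghrh UMIs (0.570 per 10000, 0.461 to 0.697), below the 0.953 of kept cells, with Mt1 at 3.61. The 4 barcodes over the gene limit held 30 (4.91 per 10000, 3.31 to 7.01), above kept cells, with Mt1 at 16.7. Barcodes below the UMI or gene minimum held 9 (0.306 per 10000, 0.140 to 0.581), with Mt1 at 1.19. That last level of Ghrh lay within the intervals of macrophages, red blood cells and melanotropes. It also lay within those of gonadotropes and of proliferating, collagen-gated and T and NK cells. Whether free RNA gave these UMIs was not tested.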

How the results depend on the processing

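The counts limit precision: Ghrh rested on 227 UMIs of the mt/hGRF library and Mt3 there on 46. Between groups, no alternative made a metallothionein gene pass in all kept cells. Genes called in the mt/hGRF comparison rose from 0 to 181 by DESeq2, 861 without the low-count filter and 1 at a minimum of 500 UMIs, with 2 to 623 when a WT female library was left out. Ghrh then had log2 differences of 9.56 by DESeq2, 10.72 without the filter and 10.74 to 10.84 with a library left out. These values were fitted against a group with 0 UMIs and set no size (against an allowance of 3 counts the ratio was 85.3-fold). Mt2 changed sign when a library was left out (-0.99 to 1.39). Between the sexes, 12 genes were called by DESeq2, 37 without the filter and 1 to 91 with a library left out. With a library left out Mt1 ranged from -0.32 to 1.26, Mt2 from -1.13 to 1.26 and Mt3 from -1.35 to 0.32, so that none of the 3 had a settled sign. In lactation 5 genes were called by DESeq2 and 20 without the filter.

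Samples sharing a run tag correlated at 0.201 in their deviations (2 pairs). The labels do not say what the tag marks, and 2 pairs were too few to settle whether it pairs the samples. Only the 4 8-week WT Drop-seq libraries carry it, and the others were given no tag effect, so that beyond the sexes it acts through the shared spread and the WT female level. With that tag as a replicate block, 8 genes in place of 3 were called between the sexes and 3 in place of 0 in lactation, and Mt2 turned from -0.22 to 0.17 in the mt/hGRF comparison, with no metallothionein call. With the 10X Genomics pair added and the replicate block, 0 genes were called between the sexes and Mt2 was at 0.25.

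Against other cells, 314 values under alternatives kept direction and side of the threshold, 16 lost a call, 7 gained one and 5 changed sign. With a library left out, Mt3 in hormone-rich cells ranged from 0.48 to 0.71, Mt1 and Mt2 in melanotropes from -0.28 to 0.06 and -0.74 to -0.37, Mt1 and Mt2 in proliferating cells from -1.70 to -0.83 and -1.08 to -0.18, Mt1 and Mt2 in red blood cells from -1.80 to -1.14 and -1.85 to -1.33, and Mt1 in somatotropes from -0.24 to 0.05. In the 10X Genomics libraries alone, Mt1 was at -0.77 in gonadotropes, 0.61 in macrophages and -0.12 in proliferating cells. Mt2 was there at 0.59 in hormone-rich cells, -1.37 in melanotropes, 1.24 in proliferating cells and -1.12 in somatotropes, and Mt3 in collagen-gated cells, with 0 UMIs of 85457, at a fitted -10.10 that sets no size. With 3 marker UMIs, Mt3 in lactotropes (-0.66) and Mt1 in collagen-gated cells (-0.56) lost their calls, and Mt1 in macrophages (-0.50) gained one. Within somatotropes that gate gave Mt1 2.65 in the mt/hGRF comparison, and Mt1 0.92 and Mt2 0.56 between the sexes. With the hormone-rich gate applied last, 4 calls were lost: Mt1 and Mt3 in hormone-rich cells (0.39 and 0.47), Mt2 in melanotropes (-0.32) and Mt1 in proliferating cells (-0.92). Without the mitochondrial limit, Mt1 was at -1.54 in red blood cells and Ghrh at 0.796 per 10000 in all cells, and without cells of 4 or more Ghrh UMIs Ghrh was at 0.692. The cause of these changes was not tested.

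The share of cells with Mt1 or Mt2 that held Ghrh was 3.84% and 5.76% thinned to 300 and 500 UMIs, 21.6% for at least 2 metallothionein UMIs, and 3.55% thinned without the cells of 4 or more Ghrh UMIs. Without metallothionein it was 1.39% and 1.34% thinned to 300 UMIs, before and after those cells, picked by their Ghrh, were left out. Without them the 2 intervals overlapped at their ends only (1.88 to 6.05 and 0.926 to 1.89).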
